A study of Mus musculus with 6 samples.

Results

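The genes described here are 10 oncofetal genes, active in the embryo and in many tumours and switched down in most adult tissues: Lin28a, Lin28b, Trim71, Hmga1, Hmga2, Igf2bp1, Igf2bp2, Igf2bp3, Myc and Mycn. They were chosen by symbol, as genes tied to the plasticity of newborn supporting cells (SCs), and all 10 were found among the 24421 symbols of the count table. RNA was sequenced from cochlear explants of wild-type (WT) mice at postnatal day 2, after the modiolus, the tectorial membrane and the forming stria vascularis had been taken off. Neomycin, an aminoglycoside that is toxic to hair cells (HCs), was given at 1 mM over 6 h, starting 12 h after the explants were set up. RNA was taken after 5 days of recovery, during which the medium held 10 μM EdU, a thymidine analogue that marks new DNA. The 3 control and 3 neomycin samples were each a pool of 6 to 8 cochleae. The labels print the neomycin step for all 6 samples, and the control group is taken as explants without neomycin from its treatment label alone. Whether the pools came from separate litters is not given, so the p-values measure the spread between these pools.

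LIN28A and LIN28B are RNA-binding proteins that hold back the processing of the let-7 microRNAs, and let-7 in turn represses Lin28 and a set of growth genes that includes Hmga2, the Igf2bp family and Trim71. HMGA1 and HMGA2 are chromatin proteins that bend AT-rich DNA, the IGF2BP proteins bind and stabilise messenger RNAs, TRIM71 is a repressor of messenger RNAs in embryonic cells, and MYC and MYCN pair with MAX to drive genes of growth. In the cochlea the LIN28B and let-7 pair is known for its part in how readily SCs of newborn mice divide or turn into HCs, a capacity that is lost as the organ matures.

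The let-7 seed and its matches in these genes are shown first. The 9 mature let-7 family microRNAs in the RefSeq table (build GRCm38.p6) carry the same 7-base seed at bases 2 to 8. They differ in the bases behind it, as shown by 4 of them, with the seed in capitals.
let-7a-5p: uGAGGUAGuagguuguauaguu
let-7d-5p: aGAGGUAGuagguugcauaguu
let-7i-5p: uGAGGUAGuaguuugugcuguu
miR-98-5p: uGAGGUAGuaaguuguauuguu

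The 7-base complement of that seed, CTACCTC, and the 8-base form with a following A, CTACCTCA, were searched on the sense strand of the longest annotated 3′UTR of each gene (GENCODE M21, build GRCm38). The windows below are shown because they hold every 8-base match in Lin28b, Hmga2, the Igf2bp genes and, for Trim71, the closest pair. Each is 30 bases of 3′UTR on the minus strand, and the capitals mark the match.
Lin28b at chr10:45381022-45381051: tcccttcacccgggcgggaagtCTACCTCA
Hmga2 at chr10:120364224-120364253: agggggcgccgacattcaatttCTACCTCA
Igf2bp1 at chr11:95961778-95961807: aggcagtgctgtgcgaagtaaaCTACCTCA
Igf2bp1 at chr11:95959357-95959386: tgggaaccagcagtgctattaaCTACCTCA
Igf2bp1 at chr11:95958763-95958792: actacgagtataaatggatgaaCTACCTCA
Igf2bp2 at chr16:22059473-22059502: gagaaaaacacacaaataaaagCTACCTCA
Igf2bp3 at chr6:49086787-49086816: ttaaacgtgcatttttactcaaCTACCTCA
Trim71 at chr9:114509047-114509076: gattttgtttagtatggattttCTACCTCA
Trim71 at chr9:114509021-114509050: ctcaattttggcaaaaagttgtCTACCTCA

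Trim71 held 4 of the 8-base matches in a 3′UTR of 5512 bases, and 2 of the 14995 tested genes with a 3′UTR held as many or more, Trim71 included. Igf2bp1 held 3 in 6337 bases, a number reached by 6 genes, Igf2bp1 included. Lin28a held 2 in 2775 bases, and Lin28b, Hmga2, Igf2bp2 and Igf2bp3 held 1 each. With the 7-base form included, Lin28b and Hmga2 each had 4 matches. Hmga1 had only a 7-base match, in the window ccatcttctcctctgttcacaaaCTACCTC on the plus strand at chr17:27563269-27563298. Myc and Mycn, with 3′UTRs of 466 and 913 bases, had neither form. For comparison, 10.4% of the 14995 genes had a 7-base match and 3.65% an 8-base match, and among the 4399 genes with a 3′UTR of at least 2000 bases the shares were 20.6% and 7.48%. A match describes the letters and was not tested as a site.

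Total counts ran from 50471116 to 66068108 per sample, and 15988 genes passed the filter on low counts, 9 of the 10 oncofetal genes among them. HC markers differed between the groups: 17 of 20 fell (adjusted p-value under 0.05, edgeR), and their summed level was 1024 to 1161 CPM (read counts brought to a common library size, with TMM factors of edgeR) in control and 434 to 519 CPM after neomycin. Of the other marker lists, 4 of 20 SC markers rose and 3 fell, 8 of 14 macrophage markers rose, 8 of 20 proliferation markers fell, 8 of 12 endothelial markers fell, 2 of 15 mesenchymal markers rose and 5 fell, 2 of 14 neuronal markers rose and 4 fell, 3 of 12 glial markers fell, and none of the 3 erythroid markers tested passed. Of all genes tested, 16.1% fell and 12.9% rose by the same test. The SC shares, 20.0% higher and 15.0% lower, and the rising mesenchymal (13.3%) and neuronal (14.3%) shares lay near these. The summed level of SC markers was 6851 to 8138 CPM in control and 8619 to 11888 CPM after neomycin. Their median log2 fold change was 0.11, with 11 of 20 positive and 9 negative. The sums overlapped for proliferation markers (429 to 490 and 392 to 451 CPM) and endothelial markers (351 to 401 and 328 to 378 CPM). In these bulk samples, fewer cells of a type and less RNA per cell cannot be told apart.

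After neomycin, Hmga2, Igf2bp1 and Igf2bp2 fell by 23.6%, 22.0% and 13.2%, while Hmga1, Trim71, Igf2bp3, Myc, Mycn and Lin28b did not pass the test. Trim71 and Hmga1 had lower log2 fold changes than the genes that passed, at -0.68 and -0.42 (adjusted p = 0.213 and 0.169, edgeR). By edgeR's quasi-likelihood fit (adjusted by Benjamini-Hochberg across all tested genes), 3 of the 9 genes tested were lower and 0 higher at an adjusted p-value under 0.05, where 16.1% of all genes tested were lower and 12.9% higher. With the fold change over 1.5 that the study required in addition, 0 of the 9 were called, against 6.6% of all genes called lower. DESeq2 and limma-voom also gave 0, and 0 of the 9 had a fold change over 1.5 together with an unadjusted p-value under 0.05. The median log2 fold change was -0.21 over the 9 genes and -0.00 over all genes tested. Of the 9, 8 had a negative value, Myc among them at -0.00. In 4 of the 9 (Hmga1, Hmga2, Igf2bp1 and Igf2bp2) every neomycin sample lay below every control sample, as did 22.5% of all genes tested.

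The 3 calls were lost when gene length was taken into account. With the trend of each sample's log2 ratio on exon length removed, 0 of the 9 genes passed at an adjusted p-value under 0.05 in either direction, against 12.3% of all genes lower and 11.5% higher. The median over the 9 genes was then -0.10. Control replicate 2 was the highest control sample for 6 of the 9 genes and control replicate 3 the lowest for 6. Without control replicate 2, 0 of the 9 passed the test, and the same held without each of the 3 neomycin samples. With the length trend removed, 16 of 20 HC markers and 8 of 12 endothelial markers were lower. Of the 20 proliferation markers 3 were then lower (15.0%), a share near the 12.3% of all genes. The median log2 fold change of the proliferation markers was -0.23 both before and after the trend was removed, against -0.00 and 0.01 over all genes tested. The part of these markers in the falls of the 3 genes was not tested.

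**Figure D1:**
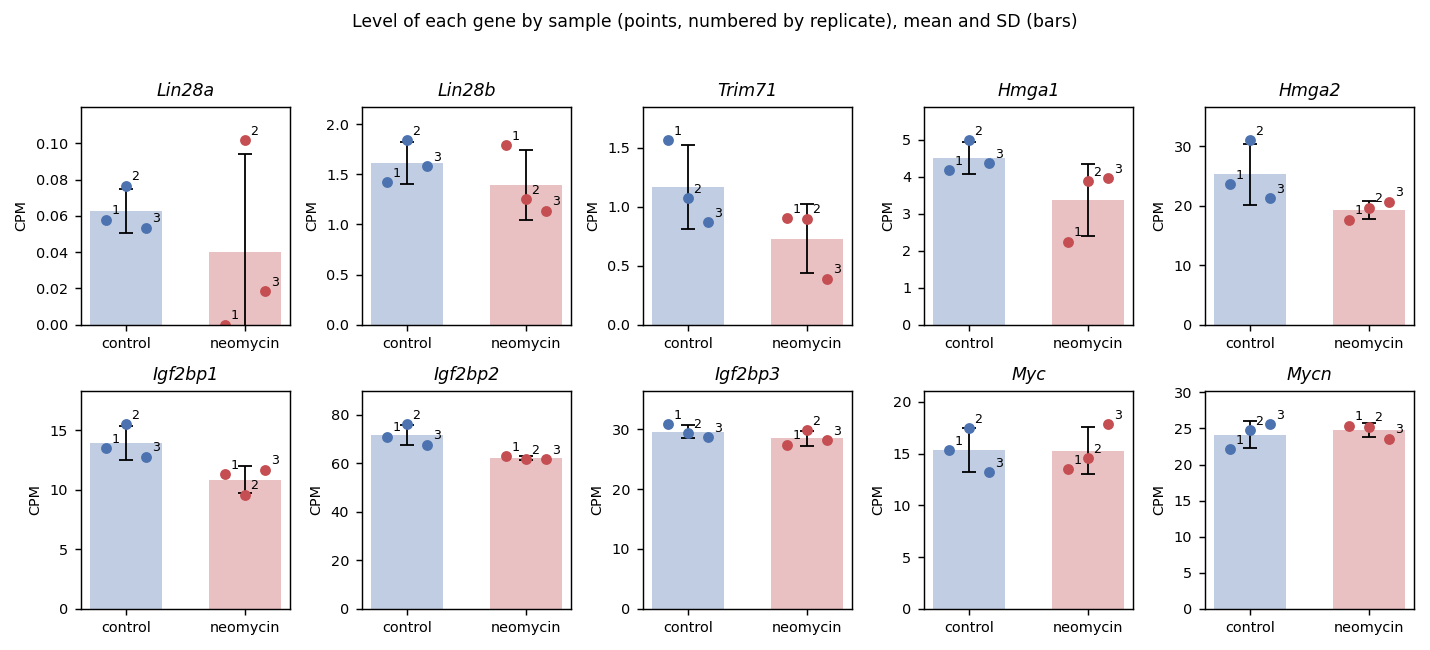
Level of each of the 10 genes in CPM (y axis, from 0, with its own range in each panel) in the control and neomycin samples; points are samples numbered by replicate, bars the mean and whiskers the SD (n = 3). The groups are apart for Hmga1, Hmga2, Igf2bp1 and Igf2bp2 and overlap for the other genes.

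Lin28a (chr4:134003330-134018841), which keeps let-7 low in pluripotent cells, was barely detected. It had 4, 4 and 3 counts in control replicates 1, 2 and 3, and 0, 6 and 1 in the neomycin replicates. The counts were at or near 3 per library, the level taken as the floor, and no fold change was computed. Lin28b (chr10:45376620-45486395), the paralog that works in differentiating tissues, made up 94.4% of the summed Lin28 level per kilobase in control. It stood at 1.42, 1.84 and 1.58 CPM in control replicates 1 to 3 and at 1.79, 1.25 and 1.14 CPM in neomycin replicates 1 to 3. The groups overlapped, with neomycin replicate 1 close to the highest control sample. The fitted log2 fold change was -0.21 (standard error (SE) 0.28, 95% confidence interval -0.82 to 0.40, adjusted p = 0.608, edgeR), and -0.04 with the length trend removed. It ran from -0.43 without neomycin replicate 1 to -0.09 without neomycin replicate 3, and was -0.10 and -0.14 without control replicate 2 and neomycin replicate 2, with no adjusted p-value under 0.05.

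Trim71 (chr9:114507133-114564369), a let-7 target of embryonic cells that stands out for its 4 matches, had the lowest log2 fold change of the 9 genes. Its level was 1.56, 1.07 and 0.872 CPM in control and 0.904, 0.898 and 0.391 CPM after neomycin, from 21 to 108 counts per sample. Control replicate 1 was high, neomycin replicate 3 was low, and control replicate 3 lay below the other 2 neomycin samples. At -0.68 (SE 0.39, 95% confidence interval -1.53 to 0.17, adjusted p = 0.213, edgeR) it did not pass the test. It was -0.40 without control replicate 1 and -0.38 without neomycin replicate 3.

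Hmga2 (chr10:120361275-120476469), the HMGA protein of fetal stem and progenitor cells, stood at 23.6, 31.0 and 21.2 CPM in control and at 17.6, 19.6 and 20.6 CPM after neomycin. Control replicate 2 was the highest sample, and the gap between the groups, from 20.6 to 21.2 CPM, was small against the spread within control. The means were 25.3 ± 5.08 and 19.3 ± 1.55 CPM (SD, n = 3), and the fitted log2 fold change was -0.39 (SE 0.13, 95% confidence interval -0.67 to -0.11, adjusted p = 0.0401, edgeR). With the length trend removed it was -0.26 (adjusted p = 0.141), and in limma-voom the adjusted p-value was 0.0520. The adjusted p-value was 0.206 without control replicate 2 (log2 fold change -0.21), and 0.104, 0.103 and 0.0541 without neomycin replicates 1, 2 and 3 (edgeR).

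Hmga1 (chr17:27556497-27563674), the more widely expressed relative, stood at 4.17, 4.98 and 4.36 CPM in control and at 2.24, 3.88 and 3.97 CPM after neomycin. The groups did not overlap, and neomycin replicate 1 was far below the other samples. The fitted log2 fold change was -0.42 (SE 0.22, 95% confidence interval -0.89 to 0.06, adjusted p = 0.169, edgeR), and -0.20 without neomycin replicate 1. Hmga1 is short, and with the length trend removed its log2 fold change was -0.58 (adjusted p = 0.0610, edgeR), further from 0, whereas those of Hmga2, Trim71, Igf2bp1 and Igf2bp2 came closer to 0. The share of Hmga2 in the summed HMGA level per kilobase was 74.4% ± 2.34 in control and 75.5% ± 4.37 after neomycin (SD, n = 3).

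Igf2bp1 (chr11:95957163-96005940), known for binding messenger RNAs that include Myc and for its repression by let-7, stood at 13.5, 15.5 and 12.8 CPM in control and at 11.3, 9.58 and 11.7 CPM after neomycin. Every neomycin sample was lower than every control sample. The fitted log2 fold change was -0.36 (SE 0.12, 95% confidence interval -0.62 to -0.10, adjusted p = 0.0399, edgeR), and -0.17 (adjusted p = 0.309) with the length trend removed. The adjusted p-value was 0.0639 and 0.175 without control replicates 1 and 2, and 0.0502, 0.167 and 0.0510 without neomycin replicates 1, 2 and 3 (edgeR).

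Igf2bp2 (chr16:22059009-22163299), the family member that stays on in adult tissues, had the highest level per kilobase of the 10 genes. It stood at 70.9, 76.0 and 67.6 CPM in control and at 62.9, 61.7 and 61.8 CPM after neomycin. The neomycin samples lay within a narrow range below all control samples. The means were 71.5 ± 4.23 and 62.1 ± 0.664 CPM (SD, n = 3), and the fitted log2 fold change was -0.20 (SE 0.07, 95% confidence interval -0.36 to -0.05, adjusted p = 0.0443, edgeR). With the length trend removed it was -0.07 (adjusted p = 0.476), and with no filter on low counts the adjusted p-value was 0.0512. The adjusted p-value was 0.0870 and 0.188 without control replicates 1 and 2, and 0.0731, 0.147 and 0.121 without neomycin replicates 1, 2 and 3 (edgeR).

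Igf2bp3 (chr6:49085223-49214957), the most strictly oncofetal of the family, stood at 30.8, 29.3 and 28.6 CPM in control and at 27.4, 29.8 and 28.1 CPM after neomycin. The groups overlapped. The fitted log2 fold change was -0.06 (SE 0.08, 95% confidence interval -0.23 to 0.12, adjusted p = 0.628, edgeR) and turned to 0.10 with the length trend removed. Malsu1, on the other strand, shares 1529 exon bases with Igf2bp3, the largest such overlap among the 10 genes, and the strand setting of the counting is not given in the sources used here. Lin28a, Hmga1, Hmga2, Igf2bp1 and Trim71 share 22 to 234 exon bases with genes on the other strand.

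Within the family, the share of Igf2bp1 in the summed Igf2bp level per kilobase was 5.98%, 6.58% and 5.98% in control and 5.67%, 4.80% and 5.88% after neomycin. The share of Igf2bp3 was 26.4%, 24.0% and 25.9% in control and 26.5%, 28.8% and 27.3% after neomycin. The groups did not overlap in either share, with Igf2bp1 lower and Igf2bp3 higher after neomycin. Exact two-sided permutation tests gave p = 0.1 for both, the smallest value that 3 samples against 3 allow, and 0.4 after Benjamini-Hochberg adjustment over the 8 shares compared. Igf2bp2 made up 68.4% ± 0.897 in control and 67.0% ± 0.733 after neomycin (SD, n = 3, exact permutation p = 0.2).

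**Figure D2:**
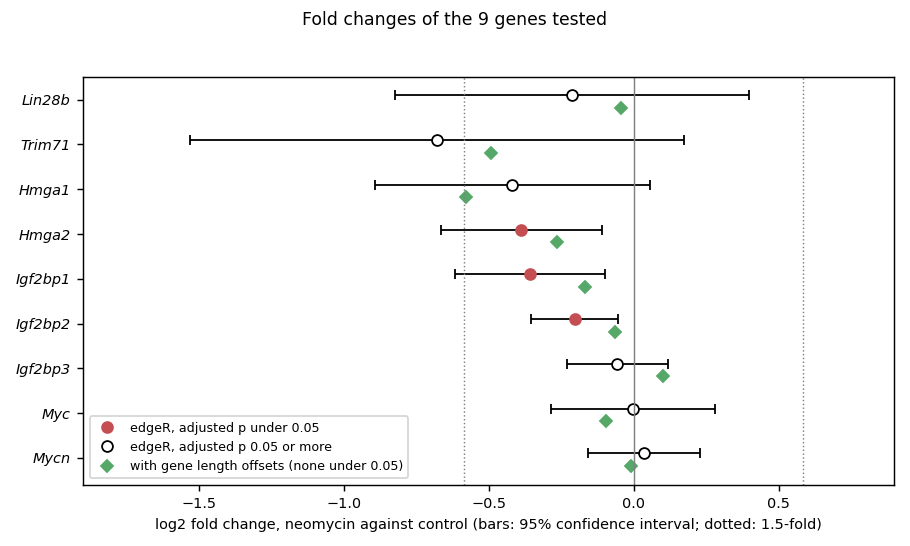
Log2 fold change of neomycin against control (x axis) for the 9 genes tested, with the 95% confidence interval of the edgeR fit (circles; red at an adjusted p-value under 0.05) and the estimate with gene length offsets (green diamonds); dotted lines mark a fold change of 1.5. Hmga2, Igf2bp1 and Igf2bp2 are red, at -0.39, -0.36 and -0.20, and no diamond has an adjusted p-value under 0.05.

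Myc (chr15:61985391-61990374), the growth-promoting transcription factor, stood at 15.3, 17.4 and 13.2 CPM in control and at 13.5, 14.5 and 17.8 CPM after neomycin. The highest and the lowest of the 6 samples were neomycin replicate 3 and control replicate 3. The fitted log2 fold change was -0.00 (SE 0.13, 95% confidence interval -0.28 to 0.28, adjusted p = 0.995, edgeR), and its sign changed with the size factors of DESeq2. Mycn (chr12:12936093-12941914), the MYC family member of embryonic progenitors, stood at 22.1, 24.8 and 25.6 CPM in control and at 25.4, 25.3 and 23.6 CPM after neomycin. The groups overlapped throughout. The fitted log2 fold change was 0.04 (SE 0.09, 95% confidence interval -0.16 to 0.23, adjusted p = 0.792, edgeR), with a change of sign when only total counts were scaled and when the length trend was removed. The interval of both genes held no change as large as 1.5-fold.

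Per kilobase of the longest coding transcript, Igf2bp2 led in control with 18.3 ± 1.09 CPM per kilobase and Mycn followed with 9.04 ± 0.680. Igf2bp3 at 6.81 ± 0.258, Hmga2 at 6.63 ± 1.33 and Myc at 6.55 ± 0.907 could not be put in order within their SDs. Hmga1 at 2.25 ± 0.212, Igf2bp1 at 1.66 ± 0.169, Lin28b at 0.299 ± 0.0392 and Trim71 at 0.125 ± 0.0383 came next (SD, n = 3). Lin28a was at 0.0179 CPM per kilobase. After neomycin, Hmga2 at 5.07 CPM per kilobase lay below Igf2bp3 at 6.55 and Myc at 6.54. With the length of all annotated exons in place of the transcript, a choice made after the values were seen, Myc at 5.64 CPM per kilobase stood above Hmga2 at 3.73 and Igf2bp3 at 3.63 in control. Mycl, the third MYC paralog, held the largest share of the summed MYC family level, 45.5% ± 3.51 in control and 43.2% ± 4.73 after neomycin (SD, n = 3).

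**Figure D3:**
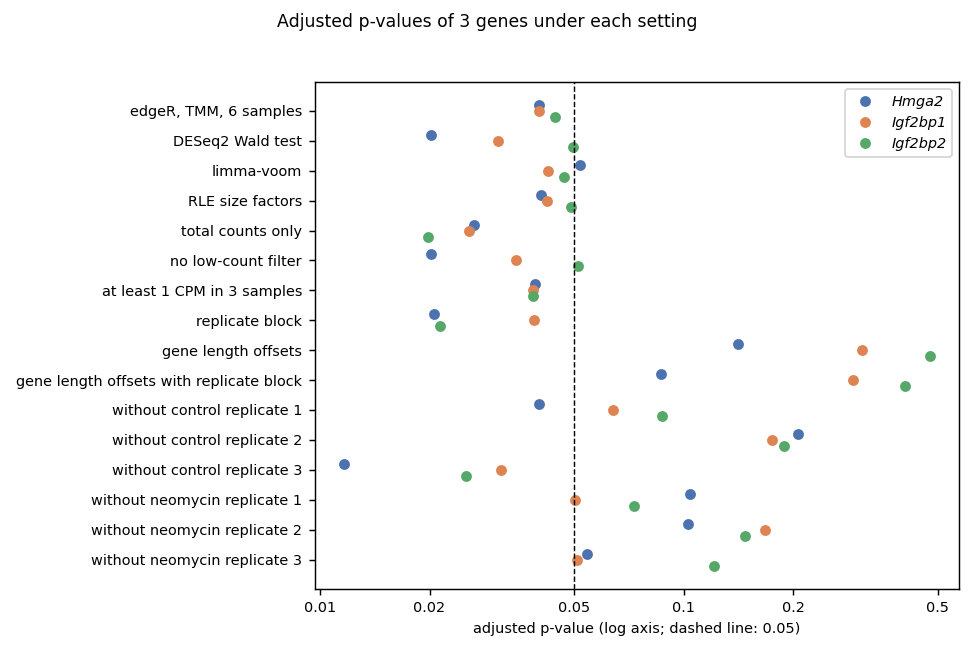
Adjusted p-value (x axis, log scale, dashed line at 0.05) of Hmga2, Igf2bp1 and Igf2bp2 under each test, scaling, filter and left-out sample (y axis). Points cross to the right of 0.05 with gene length offsets and when most single samples are left out, and stay to the left without control replicate 3.

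The genes that make let-7 were set beside its regulators. The shares of all genes tested given above, 16.1% lower and 12.9% higher, are the background for the lists, and 12.3% and 11.5% with the length trend removed. Of 18 genes of let-7 processing and silencing, 7 fell and 2 rose (38.9% and 11.1%, median log2 fold change -0.21), and 2 fell and 1 rose with the length trend removed. The count past the threshold, 9, was 4 without control replicate 2, neomycin replicate 2 or neomycin replicate 3, and 5 without control replicate 1. Ago2, the slicing Argonaute, fell from 17.2 ± 5.29 to 5.12 ± 0.621 CPM (SD, n = 3, log2 fold change -1.75, adjusted p = 0.000115, edgeR). Dicer1, which cuts the precursors, fell by 0.29 on the log2 scale (adjusted p = 0.0237, edgeR) and stood at -0.02 with the length trend removed (adjusted p = 0.868). Dis3l2, the nuclease that degrades the precursor once LIN28 has had it tagged, had 0.07 (adjusted p = 0.619, edgeR). Mature let-7 was not measured in these libraries of messenger RNA. Of 13 let-7 precursor and host genes in the table, 6 had 0 counts in every sample and 2 could be tested. Mir99ahg, host of a let-7c precursor, rose from 4.48 ± 0.411 to 7.95 ± 1.24 CPM (SD, n = 3, log2 fold change 0.83, adjusted p = 0.00259, edgeR), and Mirlet7d had 0.29 (adjusted p = 0.562).

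Among 29 genes known as let-7 targets, with Dicer1 counted again among them, 11 fell and 2 rose (37.9% and 6.90%, median log2 fold change -0.23). Ccnd2, a D cyclin of entry into the cell cycle, fell from 103 to 67.4 CPM (log2 fold change -0.61, adjusted p = 0.000741, edgeR). Irs2, an adaptor of insulin and IGF receptors, fell further (log2 fold change -1.21, adjusted p = 0.00151, edgeR). With the length trend removed, 6 of the 29 fell and 1 rose, and the median was -0.04. The count past the threshold, 13, was 5, 6 and 7 without control replicate 2, neomycin replicate 2 and neomycin replicate 3.

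The number of 8-base matches was then set against the fold change in all 14995 genes. The median log2 fold change was -0.01 in 14448 genes without a match, -0.11 in 521 genes with 1 and -0.32 in 26 genes with 2 or more. At an adjusted p-value under 0.05, 16.5%, 23.2% and 46.2% of these genes were lower. Igf2bp1 and Trim71 were among the 26, at -0.36 and -0.68. The length of the 3′UTR rose along the same order, with medians of 1114.5, 2372 and 4613 bases. In the 1189 genes with a 3′UTR of at least 4000 bases, whatever their matches, the median log2 fold change was -0.22 and 36.0% were lower. With the length trend removed the medians of the 3 classes were 0.01, -0.01 and -0.18, and the shares lower were 12.5%, 15.9% and 23.1%. The genes with a 3′UTR of at least 4000 bases then had a median of -0.04, and 18.9% of them were lower. The part of 3′UTR length in this order was not tested further.

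**Figure D4:**
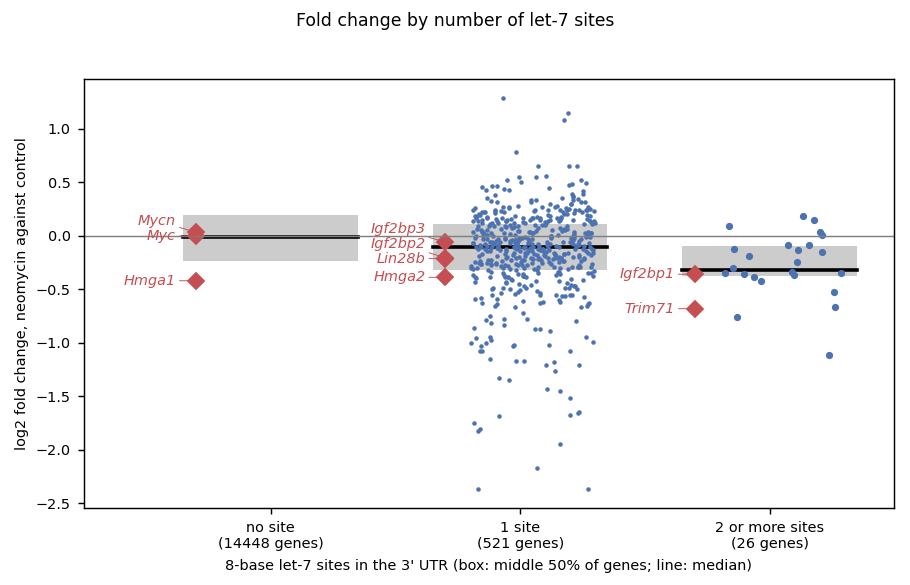
Log2 fold change of neomycin against control (y axis) by the number of 8-base let-7 matches in the 3′UTR (x axis); grey boxes hold the middle 50% of genes, black lines are medians, blue points genes with a match, and red diamonds the oncofetal genes tested. The medians are -0.01, -0.11 and -0.32, with Igf2bp1 and Trim71 in the class with 2 or more.

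Of 25 genes of the MYC and MAX network, 5 fell and 1 rose (20.0% and 4%, median log2 fold change -0.06), a share of falls near that of all genes tested, and 1 fell and 2 rose with the length trend removed. The count past the threshold, 6, was 2 without control replicate 2 or neomycin replicate 2, 3 without control replicate 1 and 10 with the replicate number as a block. Max, the partner that MYC needs to bind DNA, stood at 105 ± 3.44 CPM in control and 118 ± 3.01 CPM after neomycin (SD, n = 3, log2 fold change 0.17, adjusted p = 0.0680, edgeR).

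Of 35 genes known to be activated by MYC, 3 rose, 2 fell and 30 did not pass (8.57% and 5.71%, median log2 fold change 0.06), both shares below those of all genes tested, and 2 rose and 2 fell with the length trend removed. The count past the threshold, 5, was 1 without control replicate 2 or neomycin replicate 2, 2 without control replicate 1, 3 without neomycin replicate 3, 12 without control replicate 3 and 14 with the replicate number as a block. Cdk4, a kinase of entry into the cell cycle, rose from 289 to 347 CPM (adjusted p = 0.0220, edgeR), Nme2, a nucleoside diphosphate kinase, from 377 to 485 CPM (adjusted p = 0.0233), and Apex1, a DNA repair enzyme, from 24.8 to 29.1 CPM (adjusted p = 0.0463). Tert, the catalytic subunit of telomerase, fell from 4.40 to 1.86 CPM (adjusted p = 0.00735, edgeR), and Odc1, the first enzyme of polyamine synthesis, from 924 to 706 CPM (adjusted p = 0.0143). Nme2 and Apex1 did not pass with the length trend removed.

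Among the 11 other HMG chromatin genes tested, 5 rose and 1 fell (45.5% and 9.09%, median log2 fold change 0.17), and 4 rose with the length trend removed. Hmgn2, a nucleosome-binding protein, rose from 85.4 ± 1.63 to 145 ± 6.77 CPM (SD, n = 3, log2 fold change 0.76, adjusted p = 1.59e-05, edgeR). HMGN genes have many processed copies in the genome, and how reads that match several places were counted is not given in the sources used here. Of 24 partners of the IGF2BP proteins and genes of m6A, the RNA methylation these proteins read, 1 rose and 2 fell (4.17% and 8.33%), and 5 rose and 1 fell with the length trend removed (20.8% and 4.17%). The count past the threshold, 3, was 1 without control replicate 1, control replicate 2, neomycin replicate 2 or neomycin replicate 3, 6 without control replicate 3, 5 without neomycin replicate 1 and 8 with the length offsets and the replicate block together. Igf2, whose RNA gave the family its name, stood at 2747 ± 221 CPM in control and 2714 ± 216 CPM after neomycin (SD, n = 3, adjusted p = 0.917, edgeR). Of 30 genes of IGF, PI3K and mTOR signalling, 14 fell and 2 rose (46.7% and 6.67%, median log2 fold change -0.26, with Irs2, Insr and Igf1r also among the let-7 targets), and 8 fell and 3 rose with the length trend removed. The count past the threshold, 16, was 10 without neomycin replicate 2, 11 without control replicate 2 and 18 without control replicate 3. Eif4ebp2, a repressor of translation that mTOR switches off, fell from 20.9 to 9.63 CPM (log2 fold change -1.12, adjusted p = 0.000292, edgeR).

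**Figure D5:**
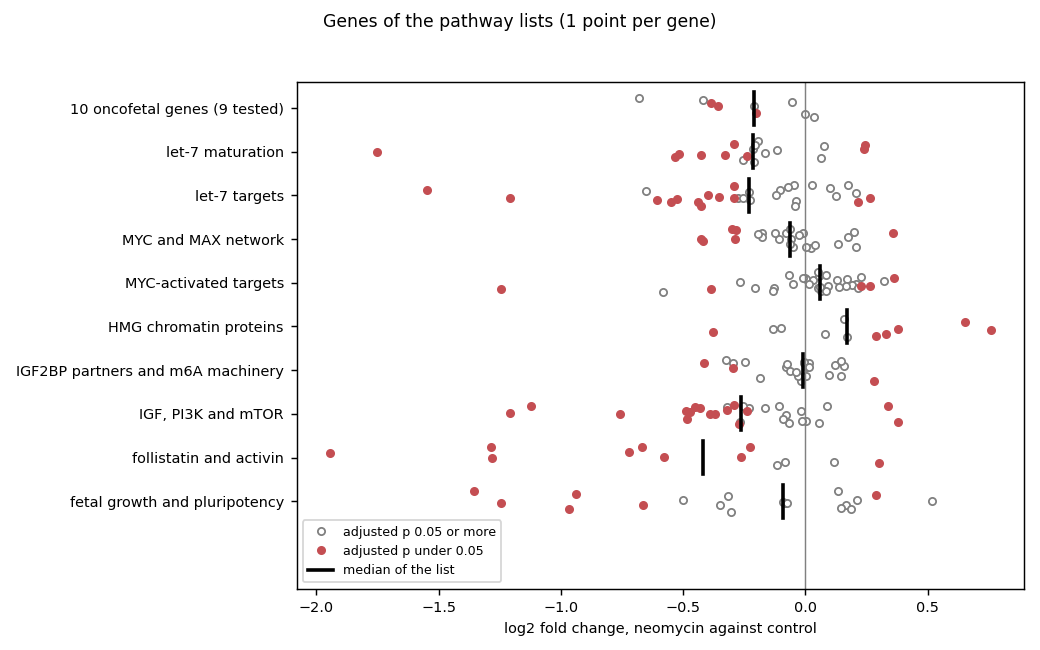
Log2 fold change of neomycin against control (x axis) for each tested gene of the oncofetal set and of 9 pathway lists (y axis); filled red points have an adjusted p-value under 0.05 and black lines are list medians. The medians run from -0.42 for the follistatin and activin genes to 0.17 for the HMG chromatin proteins, with the oncofetal genes at -0.21.

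The promoters of 8 of the 10 genes (Lin28a, Lin28b, Trim71, Hmga1, Hmga2, Igf2bp2, Igf2bp3 and Mycn) were read from RefSeq (GRCm38.p6, a window of 300 bases over each start). The E-box CACGTG, the letters that MYC and MAX recognise and the same on both strands, occurred 2 times for Igf2bp3 and 1 time for Lin28b. It was in 7.15% of 32851 promoters. The Lin28b window, chr10:45470152-45470451 on the minus strand, lies inside the gene and not at its outer annotated start, chr10:45486395. The letters GGAATG, which TEAD factors recognise, were in none of them on either strand, and in 14.7% of all promoters. Neither count speaks of binding.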

How the data were processed

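The authors processed raw reads with CASAVA 1.8, trimmed reads with Trimmomatic 0.23, aligned them to mm10 with HISAT2 and counted them per gene symbol with HTSeq. The deposited values are raw counts. The strand setting and the date of the annotation are not given in the sources used here. The 10 genes, the gene lists, the paralog shares and the let-7 match classes were chosen with earlier results of these data known.

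Counts were scaled by TMM, filtered with filterByExpr and tested with the quasi-likelihood test of edgeR 4.0.16 (R 4.3.3), adjusted by Benjamini-Hochberg over all genes tested. CPM are TMM-scaled. Alternatives were DESeq2 1.42.0, limma-voom (limma 3.58.1), other scalings and filters, a fold threshold of 2 (0 of the 9 genes), the replicate block, each sample left out, and offsets that remove a lowess trend (span 0.3) on exon length. From each list, up to 5 genes of lowest adjusted p could be named, and Max, Igf2, H19, Dicer1, Dis3l2, Mycl and Fst. Some genes this rule would name are not reported here. Levels per kilobase used GENCODE M21 (GRCm38). The code was tested on simulated data. The floor of 3 counts covers counting error only.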

Additional observations from a re-analysis of the deposited data

How the results depend on the processing

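Of the 9 genes tested, 3 passed at an adjusted p-value under 0.05. With gene length offsets 0 passed, and with length offsets and the replicate block together 1 passed and was also called at 1.5-fold, Hmga1 (log2 fold change -0.61, adjusted p = 0.0341, edgeR). Leaving out each sample in turn gave 0 to 3 genes past the threshold (3 only without control replicate 3), and 2518 to 5341 of all genes in place of 4629. The log2 fold change of Igf2bp3 turned to 0.0999 with length offsets and 0.0979 with the block added. That of Myc turned to 0.0045 in DESeq2 and 0.0047 with its size factors, and lay between -0.1259 and 0.1045 with a sample left out. That of Mycn turned to -0.0315 with total counts only, -0.0091 with length offsets and -0.0086 with the block added, and lay between -0.0188 and 0.0904 with a sample left out. The cause was not tested.

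The replicate numbers were not taken as pairs in the main fit. The correlations of same-numbered samples were 0.17, 0.03 and 0.09, and those of differently numbered samples ran from -0.13 to 0.03. These values do not settle whether the numbers mark pairs. With the replicate block alone, 6014 of all genes passed in place of 4629, and the same number of the 9, 3, passed. Lin28b, Hmga1 and Trim71, like the 3 genes that passed, had a negative log2 fold change in every alternative that tested them. For the 10 pathway lists, the count of genes past the threshold moved by more than 1.5 times in 14 of 90 list and setting pairs with all samples and in 23 of 60 with a sample left out. Trim71, with 21 to 108 counts per sample, had a 95% confidence interval from -1.53 to 0.17, and Lin28a could not be tested at this depth.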

Other observations

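Follistatin and activin genes were listed because follistatin is known to act with LIN28B in SCs of the cochlea. Of 12 genes, 8 fell and 1 rose (66.7% and 8.33%, median log2 fold change -0.42), against 16.1% and 12.9% of all genes tested. Of the falls 5 were larger than 1.5-fold, and 6 genes fell and 1 rose with the length trend removed. The count past the threshold, 9, was 5 without control replicate 2 and 6 without neomycin replicate 2 or neomycin replicate 3. It was 7 without control replicate 1 and 8 without control replicate 3 or neomycin replicate 1. Fst, which encodes follistatin, rose from 101 ± 7.07 to 124 ± 13.7 CPM (SD, n = 3, adjusted p = 0.0240, edgeR). Inhba, an activin subunit that follistatin binds, fell from 4.94 ± 1.94 to 2.04 ± 0.304 CPM (SD, n = 3, adjusted p = 0.00483, edgeR). The activin receptor gene Acvr1b fell from 35.1 to 22.1 CPM (adjusted p = 0.000788, edgeR). These genes were measured in whole explants, where HC and endothelial markers fell too, and the part of those cells in the falls was not tested.

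Of 26 other genes of fetal growth and pluripotency, 19 could be tested. Of these 5 fell and 1 rose (26.3% and 5.26%, median log2 fold change -0.09), against 16.1% and 12.9% of all genes tested. With the length trend removed 5 fell and 4 rose (26.3% and 21.1%), against 12.3% and 11.5%. Sall1, a zinc finger factor of organ formation, fell from 64.7 ± 3.40 to 33.8 ± 3.77 CPM (SD, n = 3, adjusted p = 2.11e-05, edgeR). Peg3, an imprinted gene of fetal growth, fell from 16.6 ± 4.12 to 6.48 ± 1.49 CPM (SD, n = 3, adjusted p = 0.000487, edgeR). Plag1, a driver of fetal growth genes, fell from 7.62 to 3.90 CPM (adjusted p = 0.00890, edgeR). Pou5f1, a core gene of pluripotency, had 0 counts in every sample and was named after its values were seen.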
